A study of Mus musculus with 4 samples.

Results

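The Ly6 locus family is a group of genes for small cell surface proteins, most of which are held in the membrane by a glycosylphosphatidylinositol (GPI) anchor. The 7 members described here, Ly6c1, Ly6c2, Ly6i, Ly6a, Ly6d, Ly6e and Ly6g, were selected by symbol from 16375 genes listed in the data, and all 7 were present. Their levels were read in 4 RNA libraries of bone marrow-derived macrophages (BMDMs), 1 for each of 4 groups: WT cells without butyrate (WT control) or with it (WT butyrate), and LNCKO cells without (LNCKO control) or with it (LNCKO butyrate). Bone marrow cells of WT mice, or of LNCKO mice that lack lncLy6c, a long non-coding RNA removed by CRISPR on the C57BL/6J background, were grown into macrophages with M-CSF. The treated groups received 500 µM butyrate, a short-chain fatty acid made by gut bacteria, and cells of all groups were collected after 24 h. The labels do not give the age or sex of the mice, or how many mice stand behind a library.

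Proteins of this family share a compact fold of finger-like loops tied by disulfide bonds, and antibodies to several of them are everyday tools for sorting blood cells. Ly6c1 and Ly6c2 encode the Ly6C antigen, whose level separates classical (Ly6C-high) from patrolling (Ly6C-low) monocytes, and Ly6C is lost as monocytes become resident macrophages. Ly6g encodes the neutrophil antigen seen by Gr-1 antibodies, Ly6a encodes Sca-1 of stem cells and activated leukocytes, and Ly6d marks lymphoid progenitors that turn towards B cells. Ly6e is widely expressed and restricts the entry of some viruses, and Ly6a and Ly6e are known to be induced by interferon. Ly6i is a close relative of Ly6a, Ly6c1 and Ly6c2 that is expressed in myeloid cells.

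The members lie on chromosome 15 of GRCm38 between 74762056 and 75159126, a stretch of 397071 bases with 25 annotated genes, of which 14 are protein coding and 6 are pseudogenes. In order along the chromosome, Ly6d (ENSMUSG00000034634) spans chr15:74762056-74763620 on the minus strand, Ly6e (ENSMUSG00000022587) chr15:74955051-74959905 on the plus strand, Ly6i (ENSMUSG00000022586) chr15:74979534-74983430 on the minus strand and Ly6a (ENSMUSG00000075602) chr15:74994877-74998031 on the minus strand. Then follow Ly6c1 (ENSMUSG00000079018) at chr15:75044018-75048830 on the minus strand, Ly6c2 (ENSMUSG00000022584) at chr15:75108158-75111970 on the minus strand and Ly6g (ENSMUSG00000022582) at chr15:75155240-75159126 on the plus strand. No annotated gene overlaps the span of a member.

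Despite its name, lncLy6c is not encoded among these genes. The study's quantitative PCR primers for lncLy6c are shown because they place the deleted gene. Both primers were searched in 141767 GENCODE M21 transcripts and each matched 1 of them exactly, 1700016P04Rik-201, with a product of 195 bases.
lncLy6c forward primer: cttaatgtttctctttctggg
lncLy6c reverse primer: tttctttaggtctgttgctga
1700016P04Rik is annotated as a lincRNA with 2 exons on the plus strand of chromosome 6, chr6:13413337-13415996, whereas all 7 members are on chromosome 15. The members are therefore not chromosomal neighbours of the deleted gene. The gene has no row among those used, so its loss in LNCKO libraries was not analysed here.

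Members differ in how alike their sequences are. Over their principal coding sequences, Ly6c1 and Ly6c2, each of 393 bases, were 97.7% identical with 9 mismatches. Ly6i and Ly6a were 86.3% identical, Ly6a and Ly6g 83.1%, and Ly6c2 and Ly6a 81.6%. Ly6d and Ly6e stood apart, with 46.1% to 52.3% identity to the other members and to each other. Windows of 100 bases in annotated transcripts were compared. Of all Ly6c1 windows, 10.1% also occur in another member, and 9.05% of all Ly6c1 windows occur in Ly6c2. Of all Ly6c2 windows, 5.81% occur in Ly6c1. For Ly6a the share was 1.45%, and Ly6i, Ly6d, Ly6e and Ly6g share no such window with another member. Reads in the shared windows could be assigned to either gene, so values of Ly6c1 and Ly6c2 are also given as their sum below.

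The RefSeq promoter table for GRCm38.p6 holds the start sites of 3 of the 7 members, Ly6c1, Ly6c2 and Ly6g, and their windows from 250 bases before to 50 bases after the start are shown because these genes are neighbours that were all higher with butyrate. The promoter table holds 2 entries for each of these genes, and only the entry whose start lies nearest the GENCODE 5' end was used. Capitals mark matches, on either strand, to 4 short motifs. GAGGAAGT is a core bound by PU.1, a master factor of myeloid cells, and ACCACA is a core bound by RUNX factors. The other motifs searched are the TATA box, spelled TATAAA, and the CCAAT box, which is spelled as its name.
Ly6c1, chr15:75048788-75049087, minus strand: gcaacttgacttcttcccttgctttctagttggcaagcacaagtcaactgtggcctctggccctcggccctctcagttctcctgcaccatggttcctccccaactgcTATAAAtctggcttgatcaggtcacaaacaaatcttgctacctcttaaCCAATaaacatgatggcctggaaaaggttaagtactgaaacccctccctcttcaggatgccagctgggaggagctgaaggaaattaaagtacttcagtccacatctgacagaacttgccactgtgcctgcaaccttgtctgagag
Ly6c2, chr15:75111922-75112221, minus strand: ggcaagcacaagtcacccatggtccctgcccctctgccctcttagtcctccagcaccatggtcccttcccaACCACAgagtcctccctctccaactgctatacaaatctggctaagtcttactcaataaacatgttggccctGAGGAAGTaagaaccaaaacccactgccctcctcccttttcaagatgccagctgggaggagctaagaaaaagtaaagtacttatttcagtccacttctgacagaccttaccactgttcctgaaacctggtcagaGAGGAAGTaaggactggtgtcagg
Ly6g, chr15:75155011-75155310, plus strand: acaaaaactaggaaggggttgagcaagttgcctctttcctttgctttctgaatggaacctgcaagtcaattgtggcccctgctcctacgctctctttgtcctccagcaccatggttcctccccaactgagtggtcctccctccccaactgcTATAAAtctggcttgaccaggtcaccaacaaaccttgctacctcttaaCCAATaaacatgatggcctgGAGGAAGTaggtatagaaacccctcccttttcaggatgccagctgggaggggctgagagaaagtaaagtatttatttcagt
The PU.1 core is at -108 and at 26 from the start of Ly6c2 and at -31 from the start of Ly6g, and 3.20% of 32851 promoter windows in the table hold it. The RUNX core, held by 16.8% of windows, is at -179 in Ly6c2. The letters of the TATA box, held by 13.6% of windows, and of the CCAAT box, held by 37.4%, are at -143 and -95 in Ly6c1. In Ly6g they are at -99 and -51. All shares count matches of letters at any position in a window, and whether a match is in use was not tested. An interferon response core, GAAANNGAA, was searched in the same way and had no match in these windows, against 8.56% of all windows.

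The authors deposited FPKM values, that is fragments per kilobase of gene per 1000000 fragments, in which a gene's length is its whole genomic span. Whole fragments could be recovered for all 7 members, on library totals from 53363944 to 65521713 fragments. With 1 library per group, no difference below has a replicate check and no p-value was computed. The 95% intervals given cover counting error alone, and since the fragments carry no molecular identifiers they are lower limits on the true error. They are exact for levels and ratios and approximate for differences between log2 ratios. The column names of both LNCKO libraries do not spell their condition, and each LNCKO value depends on the sample titles being right. Genes of the Y chromosome had 16 to 85 fragments each in the WT libraries and 2051 to 7764 in the LNCKO libraries, and sex cannot be told apart from genotype. In bulk RNA, fewer cells of a type and less RNA per cell cannot be told apart either.

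Ly6c2, Ly6e and Ly6a were among the most abundant transcripts of these cells. They ranked 11, 13 and 16 by mean deposited FPKM among all genes listed, and 21, 25 and 14 of 16342 matched genes per kilobase of exon. Levels per kilobase of exon were used to compare members with each other, which assumes that the fragments were counted in exons. Per exon kilobase, Ly6a had the highest level, from 1353 to 2100 over the 4 libraries, followed by Ly6c2 from 1013 to 1275, Ly6e from 896 to 963 and Ly6d from 185 to 236. Ly6c1 ranged from 137 to 177, Ly6i from 89.3 to 124 and Ly6g from 12.4 to 38.9. No neighbours in this order overlapped in their ranges. On the deposited FPKM scale the order of the top members differs, with Ly6c2 above Ly6e and Ly6e above Ly6a, since exons fill 1205 of 3155 bases of Ly6a and 2740 of 3813 bases of Ly6c2. On that scale the ranges of Ly6c2 and Ly6e overlap, as do those of Ly6e and Ly6a.

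All 7 members together made up 0.848% of fragments in control and 1.03% in butyrate-treated WT cells, and 0.841% and 0.927% in LNCKO cells. The controls of both genotypes were thus close, and the summed level with butyrate was 1.21-fold (95% counting interval 1.208 to 1.218) that of control in WT and 1.10-fold (1.098 to 1.107) in LNCKO. Within this sum, the share of Ly6a was 19.9% in WT control and 24.6% in WT butyrate, and 19.4% and 21.6% in the LNCKO libraries. The share of Ly6e was 41.2% and 35.4% in WT and 40.3% and 39.1% in LNCKO. In the plot of levels by library, the WT butyrate library stands above the other 3 libraries for 6 of the members, by the least for Ly6e.

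**Figure D1:**
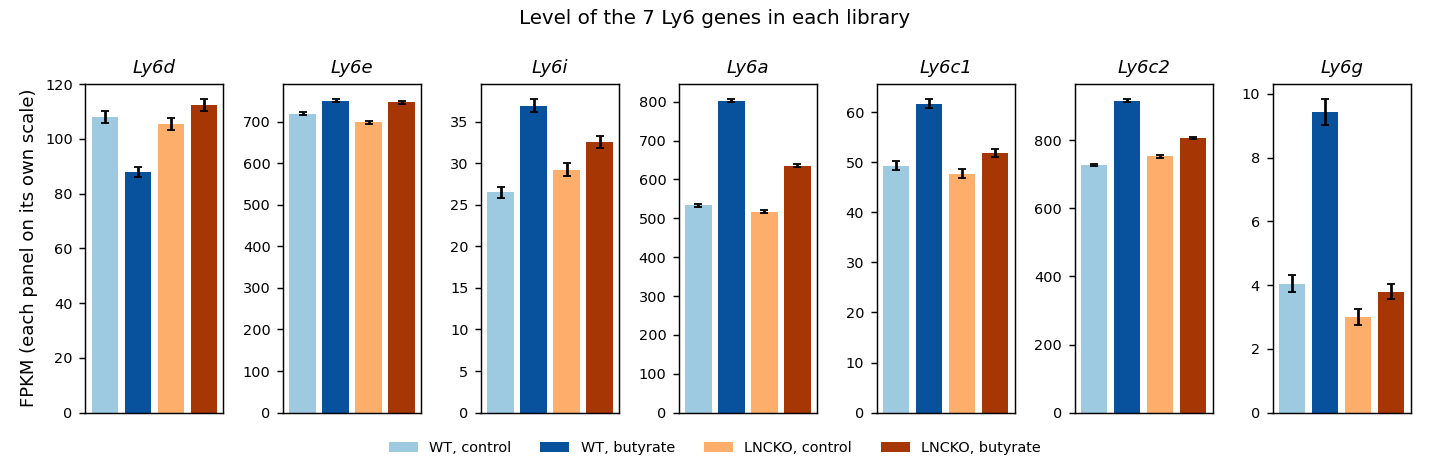
Deposited FPKM of each Ly6 gene (bars, each panel on its own linear scale from 0) in the 4 libraries, with members in chromosomal order and error bars showing exact 95% counting intervals of 1 library. Ly6i, Ly6a, Ly6c1, Ly6c2 and Ly6g are highest in WT butyrate, Ly6d is lowest there, and Ly6e is nearly level, from 698 to 751.

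The first comparison asked what butyrate did in WT macrophages. With butyrate, 6 of 7 members were higher and 1, Ly6d, was lower, with a median log2 change of 0.33, where 1 was added to each FPKM before the ratio was taken. Of the 6809 genes whose mean FPKM was 1 or more (the genes tested), 36.9% were higher, and their median was -0.04. Ly6g passed a 2-fold rise, as did 0.264% of all genes. No member was at least 2-fold lower.

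Ly6c2, the major Ly6C gene, had an FPKM of 728 in WT control cells and 916 with butyrate, and of 752 and 807 in LNCKO cells without and with it. The WT butyrate library was the highest and both controls were lower than both treated libraries. The ratio of butyrate to control was 1.26 (1.25 to 1.27) in WT and 1.07 (1.07 to 1.08) in LNCKO. Ly6c1 had an FPKM of 49.3, 61.7, 47.7 and 51.8 in the same order of libraries, which is the same ordering of treated and control cells at a far lower level. Its ratio was 1.25 (1.22 to 1.28) in WT and 1.08 (1.06 to 1.11) in LNCKO. Summing the fragments of Ly6c1 and Ly6c2, which removes the question of how shared reads were split between them, gave 1.258 in WT and 1.073 in LNCKO. Both genes thus stood higher with butyrate in both genotypes.

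Ly6i had an FPKM of 26.5 in WT control cells and 36.9 with butyrate, and of 29.2 and 32.5 in LNCKO cells without and with it. The ratio was 1.39 (1.35 to 1.44) in WT and 1.11 (1.08 to 1.15) in LNCKO. Its LNCKO control stood above its WT control, by a ratio of 1.10 (1.06 to 1.14).

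Ly6g, the neutrophil antigen, had an FPKM of 4.04 in WT control (885 fragments) and 9.43 in WT butyrate (2169 fragments), and of 2.99 (621 fragments) and 3.79 (966 fragments) in LNCKO cells without and with it. The WT butyrate library stood far above the other 3 libraries. The plain ratio of butyrate to control was 2.33 (2.16 to 2.53) in WT and 1.27 (1.14 to 1.40) in LNCKO. On the log2 scale of FPKM + 1 the change of 1.05 in WT ranked 17 from the top of 6809 genes.

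Ly6a, which encodes Sca-1, had an FPKM of 533 in WT control cells and 802 with butyrate, and of 517 and 635 in LNCKO cells without and with it. The controls were close and both treated libraries were higher, with ratios of 1.50 (1.49 to 1.52) in WT and 1.23 (1.22 to 1.24) in LNCKO. Its log2 change on the FPKM + 1 scale ranked 55 from the top in WT and 80 in LNCKO. Ly6e had an FPKM of 720, 751, 698 and 746 in the same order of libraries. This was the flattest member, with ratios of 1.04 (1.04 to 1.05) in WT and 1.07 (1.06 to 1.08) in LNCKO.

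Ly6d, the marker of B-lineage progenitors, had an FPKM of 108 in WT control cells and 88.0 with butyrate, and of 106 and 112 in LNCKO cells without and with it. Here the WT butyrate library was the lowest, and the other 3 libraries lay close together. The ratio of butyrate to control was 0.814 (0.790 to 0.838) in WT and 1.07 (1.04 to 1.10) in LNCKO. In WT its log2 change of -0.29 ranked 258 from the bottom of all genes.

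In LNCKO macrophages, all 7 members were higher with butyrate, with log2 changes from 0.09 for Ly6d to 0.30 for Ly6a and a median of 0.11 on the FPKM + 1 scale. As plain log2 ratios, without 1 added, Ly6g, at 0.34, was above Ly6a, at 0.30. Over all genes, 42.2% were higher with a median of -0.01. No member reached 2-fold, and 0.103% of genes did so upwards. The central 80% of all genes had log2 changes from -0.11 to 0.10 in LNCKO and from -0.21 to 0.16 in WT. Ly6c1, Ly6i, Ly6a and Ly6g lay above this range in LNCKO, and those 4 and Ly6c2 lay above it in WT. For Ly6c1 in LNCKO this depends on the scale. As a plain log2 ratio Ly6c1, at 0.117, lay within the LNCKO range, which then went from -0.155 to 0.131.

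**Figure D2:**
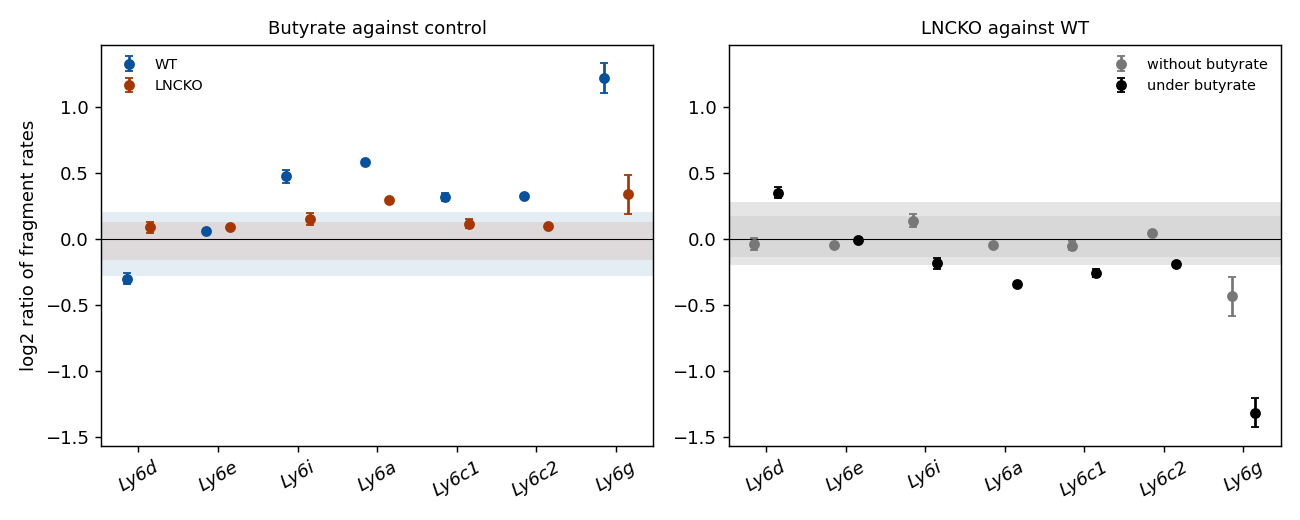
Log2 ratio of fragment rates for each Ly6 gene, butyrate against control (left, WT and LNCKO) and LNCKO against WT (right, without and under butyrate), with exact 95% counting intervals of single libraries. Shaded bands hold the central 80% of the genes tested in each comparison on the same scale, and Ly6g in WT, at 1.22, lies far above its band.

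The butyrate changes of both genotypes can be set side by side, but with single libraries their difference was not tested beyond counting error. The WT change exceeded the LNCKO change by a log2 ratio of 0.88 (0.70 to 1.07) for Ly6g, 0.32 (0.26 to 0.39) for Ly6i, 0.29 (0.27 to 0.31) for Ly6a, 0.23 (0.22 to 0.24) for Ly6c2 and 0.21 (0.16 to 0.25) for Ly6c1. For Ly6e the difference was -0.03 (-0.05 to -0.02), and its sign turns when libraries are scaled by their median ratio. For Ly6d it was -0.39 (-0.45 to -0.33). Ly6g ranked 27 from the top of 6809 genes for this difference and Ly6d ranked 148 from the bottom.

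The genotypes were compared next. Without butyrate, the log2 differences of the members between LNCKO and WT went from -0.33 for Ly6g, which ranked 61 from the bottom of 6809 genes, to 0.14 for Ly6i, with a median of -0.04. The central 80% of all genes lay between -0.10 and 0.13, and Ly6g and Ly6i were outside this range. As a plain log2 ratio, without 1 added, Ly6i, at 0.14, lay within the range, which then went from -0.13 to 0.18. Ly6g, at -0.43, was outside on both scales. Here 5 of 7 members were lower in LNCKO, against 43.3% of all genes. No member was at least 2-fold lower, as were 0.0881% of genes. The ratio of LNCKO to WT was 0.742 (0.668 to 0.823) for Ly6g, 0.976 (0.948 to 1.005) for Ly6d and 0.969 (0.960 to 0.978) for Ly6a. The Ly6d interval includes equal levels. For Ly6c1 the ratio was 0.968 (0.944 to 0.992) and for Ly6c2 1.03 (1.03 to 1.04), and the sum of both genes gave 1.03, so the sign for Ly6c1 is not kept when the pair is summed.

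Under butyrate, 6 of 7 members were lower in LNCKO than in WT and Ly6d was higher, with a median log2 difference of -0.18, against 35.8% of genes lower and a median of 0.04 over all genes. Ly6g was the member at least 2-fold lower, as were 0.25% of genes. Its ratio was 0.402 (0.373 to 0.434), and its log2 difference of -1.12 ranked 14 from the bottom. The ratio was 0.792 (0.786 to 0.798) for Ly6a, 0.840 (0.822 to 0.858) for Ly6c1, 0.881 (0.876 to 0.886) for Ly6c2, 0.882 (0.855 to 0.909) for Ly6i and 0.994 (0.988 to 1.000) for Ly6e, whose sign turns when FPKM is rescaled to 1000000 per library. For Ly6d it was 1.28 (1.24 to 1.31). This comparison and the butyrate comparison in WT share the WT butyrate library, so both values of Ly6g past 2-fold rest on that 1 library and neither is independent evidence of the other.

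The changes were also ordered along the chromosome. In WT, Ly6d at one end of the cluster was lower with butyrate, Ly6e in the middle was nearly level, and the 5 members beyond Ly6e were all higher, with the highest value, for Ly6g, at the far end. Of 18 other Ly6 and uPAR family genes of this cluster on the list used, 7 were listed and 1, Lynx1, was tested. Lynx1, a modulator of nicotinic acetylcholine receptors that lies 9.01 kb from Ly6d, had an FPKM of 7.76 in WT control cells and 5.19 with butyrate, and of 7.85 and 8.03 in LNCKO cells without and with it. Lynx1 and Ly6d were thus both lowest in WT butyrate.

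Within 1000000 bases of a member, 9 genes of other families were tested. With butyrate their median change on the log2 scale was -0.01 in WT and -0.04 in LNCKO, and in WT they ranged from -0.36 for Arc, an immediate early gene, to 0.15 for Naprt, an enzyme of NAD synthesis. In the plot along the cluster, the genes beyond Ly6g, the nearest of them 703 kb away, range from -0.15 to 0.15 in WT and from -0.16 to 0.14 in LNCKO.

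**Figure D3:**
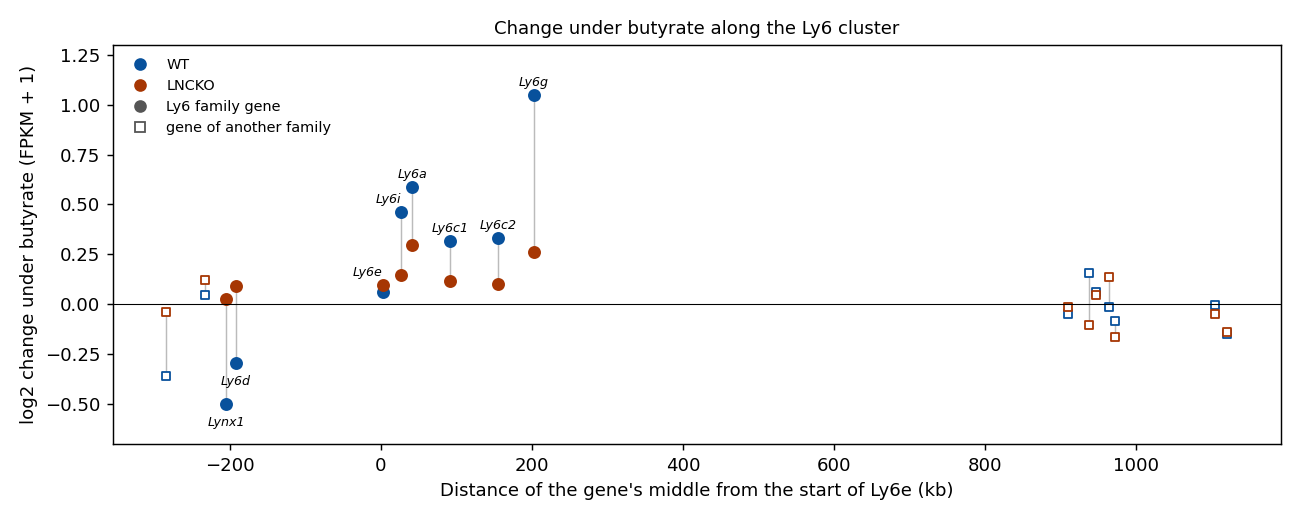
Log2 change with butyrate on the FPKM + 1 scale (vertical axis) against the distance of the middle of each gene from the start of Ly6e in kb (horizontal axis), for genes tested within 1000000 bases of a member. Filled circles are Ly6 family genes, open squares other genes, and a line joins WT with LNCKO. The WT points go from -0.50 for Lynx1 and -0.29 for Ly6d to 1.05 for Ly6g.

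Since the members mark different blood cells, their values are set beside lists of cell type markers. Of 13 macrophage markers 12 were tested, with mean FPKM from 1.29 for Mertk, a receptor for the uptake of dead cells, to 1831 for Lyz2, lysozyme, and the scavenger receptor Cd163 was at a mean of 0.0840 FPKM. They also held markers of other cells. All 16 markers of neutrophils and granulocyte precursors were tested, 7 of 13 B cell markers were, and no gene of either list was at 0 in any library.

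Beside Ly6g, the neutrophil list had a median log2 change with butyrate of 0.34 in WT (12 of 16 higher, against 36.9% of all genes) and -0.02 in LNCKO (6 of 16 higher, against 42.2%). Its summed level, per 1000000 fragments, was 9150 in WT control cells and 11440 with butyrate, and 8363 and 7993 in LNCKO cells without and with it. Mmp8, a granule collagenase, was at 60.9, 135, 60.8 and 60.6 FPKM in these libraries, Elane, neutrophil elastase, at 174, 278, 190 and 186, and Retnlg at 95.8, 141, 82.7 and 77.9. These genes, like Ly6g, were highest in WT butyrate. Other members of the list were not, and Camp, the precursor of the antimicrobial peptide cathelicidin, was at 50.3, 36.7, 44.2 and 45.9 FPKM. The part of neutrophil RNA in the values of Ly6g was not tested.

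Beside Ly6d, the B cell list had a median log2 change with butyrate of -0.39 in WT and 0.00 in LNCKO. This list had 0 of 7 genes higher in WT, against 36.9% of all genes, and 4 of 7 in LNCKO, against 42.2%. Its summed level, per 1000000 fragments, was 1645 in WT control cells and 1299 with butyrate, and 1704 and 1727 in LNCKO cells without and with it, the same order of libraries as for Ly6d apart from both controls. Cd79a, a subunit of the B cell receptor, was at 68.3, 51.3, 69.3 and 69.2 FPKM, and Rag1, a recombinase of lymphocyte precursors, at 9.27, 2.15, 10.1 and 9.11. The part of B-lineage RNA in the values of Ly6d was not tested. Markers of plasmacytoid dendritic cells, 3 of 6 tested, had medians of -0.40 in WT and 0.05 in LNCKO, and Spib was at 59.0, 45.4, 60.6 and 62.7 FPKM.

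Beside Ly6c1 and Ly6c2, the list of Ly6C-high monocyte genes had a median of 0.20 in WT (7 of 11 higher) and 0.09 in LNCKO (9 of 11 higher). Among all genes, 36.9% were higher in WT and 42.2% in LNCKO. Fn1, fibronectin, was at 3.22, 8.56, 2.63 and 3.01 FPKM over the 4 libraries and Thbs1, thrombospondin, at 238, 428, 284 and 293. Chil3, a chitinase-like protein of this monocyte type, was at 46.7, 35.3, 40.5 and 38.6, lower in WT butyrate than in WT control. The list of Ly6C-low monocyte genes had medians of -0.12 in WT and -0.15 in LNCKO. In each genotype 3 of 8 were higher, which is near the shares of all genes. Nr4a1, a transcription factor needed by these monocytes, was at 0.840, 0.511, 1.62 and 1.23 FPKM. It reaches the mean FPKM of 1 required here only through the LNCKO libraries. The macrophage list had medians of 0.18 in WT (9 of 12 higher) and 0.01 in LNCKO (6 of 12). Lyz2 was at 1972, 2871, 1609 and 870 FPKM, higher with butyrate in WT and lower in LNCKO. Cd14 was at 88.6, 60.0, 95.6 and 76.3 FPKM, lower with butyrate in both genotypes.

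Beside Ly6a and Ly6e, the list of interferon-inducible genes had similar medians in both genotypes, 0.15 in WT (20 of 24 higher) and 0.12 in LNCKO (22 of 24 higher). The shares of all genes that were higher were 36.9% in WT and 42.2% in LNCKO. Between genotypes the medians of the list were -0.06 without butyrate and -0.05 under butyrate, against 0.01 and 0.04 over all genes. Rsad2, the antiviral protein viperin, was at 88.3, 120, 89.8 and 109 FPKM. For Ly6a the log2 change was 0.59 in WT, above that of each of the 24 genes, and 0.30 in LNCKO, below that of Cxcl10 at 0.48. The part of interferon signalling in the values of Ly6a was not tested.

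**Figure D4:**
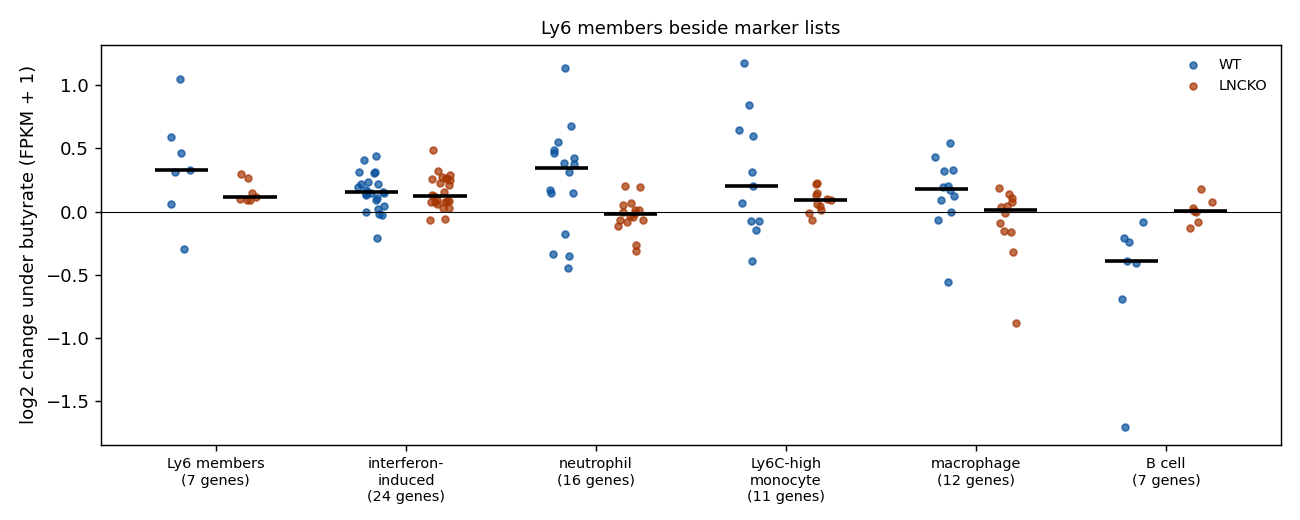
Log2 change with butyrate on the FPKM + 1 scale for single genes (points) and the list median (black lines) in WT and LNCKO, for the Ly6 members and 5 lists of marker genes with the number of genes tested below each. The WT medians are 0.33 for the Ly6 members, 0.34 for neutrophil genes and -0.39 for B cell genes, and in LNCKO the same lists have medians of 0.11, -0.02 and 0.00.

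The remaining lists had few genes tested. Stem and progenitor cell genes had a median of 0.17 in WT and -0.06 in LNCKO over 3 genes tested, T and NK cell genes -0.08 and -0.02 over 4, and the 1 endothelial gene tested, Pecam1, was at 1.10 to 1.31 FPKM.

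The members reach the surface through a GPI anchor, and the genes that build and attach it were examined as the shared machinery. Of 27 such genes 18 were tested, with median log2 changes with butyrate of -0.03 in WT (6 higher) and -0.01 in LNCKO (8 higher). These are close to the medians of all genes, of which 36.9% were higher in WT and 42.2% in LNCKO. Dpm1, which makes the mannose donor of the anchor, was at 2.45 FPKM in WT control cells and 0.899 with butyrate, and at 2.36 and 1.55 in LNCKO cells without and with it. It was lower with butyrate in both genotypes. Of 18 Ly6 and uPAR family genes on other chromosomes, 12 were listed and 2 were tested. Cd177, a neutrophil surface protein, was at 4.51, 4.62, 3.49 and 3.17 FPKM and Plaur, the urokinase receptor, at 4.17, 3.66, 4.41 and 3.98.

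The genes whose pattern over the 4 libraries was most like that of a member were found for both members with a range of at least 0.5 on the log2 scale, Ly6a and Ly6g, by the Euclidean distance between their centred log2(FPKM + 1) values. Nearest to Ly6a were Cmpk2, an interferon-induced mitochondrial kinase, at a distance of 0.06, C5ar2, a receptor of complement C5a, also at 0.06, and Gpnmb, a macrophage membrane glycoprotein, at 0.09. Cmpk2 was at 42.6, 63.8, 41.8 and 48.8 FPKM. Nearest to Ly6g were Fn1 at 0.12, Apoc1 at 0.19 and AF067061 at 0.24. Apoc1, an apolipoprotein, was at 0.993, 2.72, 0.666 and 1.01 FPKM. It reaches the mean FPKM of 1 required here only through WT butyrate, the library in which Ly6g is highest. With 4 libraries, such a likeness is a description only.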

How the data were processed

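RNA sequencing of BMDMs in 4 groups, 1 library each, was analysed. The authors deposited FPKM values per gene and no counts. The submitters' processing notes name STAR 2.5.0c, Picard 1.126, bedtools 2.17.0, HTSeq 0.6.0, DESeq2 3.0 and GRCm38 (mm10), without their roles. RNA extraction and sequencing are given as TRIzol with MGISEQ-2000 in the methods but as RNeasy with TruSeq in the labels. From the deposited FPKM, each library total was found as the number that turns most values into whole fragments on GENCODE M21 spans, and 98.8% of matched genes were whole within 0.05 in each library. A total of 16342 of 16375 genes matched the annotation.

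Changes were log2 ratios of FPKM + 1 over genes whose mean FPKM was 1 or more, called at 2-fold. Intervals are exact Poisson for levels and exact Clopper-Pearson, conditional on the sum, for ratios. Those of differences between log2 ratios use a normal approximation on the log scale from the fragment counts of all 4 libraries. With 1 library per group, no comparison within a genotype or treatment could be tested, and an additive model pooled over all 4 libraries was not run. Exon lengths are merged exons of all transcripts of a gene. Named genes are the members, up to 5 per list with the largest changes, neighbours within 1000000 bases, and 3 genes of nearest pattern. Mertk, Cd163, Cxcl10, Cd177, Pecam1 and Camp were named after their values were seen. The members and lists were chosen with earlier results of these data known. The recovery of fragments and the ratio intervals were tested on simulated data. The 2-fold calls were simulated only after centring on the median change and with a higher FPKM filter, so the calls made here were not tested as such. The software was matplotlib 3.10.9, pandas 2.3.3, scipy 1.17.1 and numpy 2.4.6 under Python 3.11.15. A gene of the interferon list and a motif that was searched are not reported here.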

Additional observations from a re-analysis of the deposited data

Results flagged for a closer look

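Changes of opposite sign under the same contrast are listed for Ly6d, Lynx1, Ly6c2 and Ly6i, in single libraries and without a test of the difference. How many of all genes turn sign in this way was not counted, so the list is a description only. With butyrate, the log2 change of Ly6d was -0.29 in WT and 0.09 in LNCKO, a difference of -0.38, and that of Lynx1 was -0.50 in WT and 0.03 in LNCKO, a difference of -0.53. Between genotypes, LNCKO minus WT on the log2 scale gave 0.05 without and -0.18 under butyrate for Ly6c2, which differ by 0.23, and 0.14 and -0.18 for Ly6i, which differ by 0.31. For Ly6d it gave -0.03 without and 0.35 under butyrate, which is the same difference of -0.38 seen from the other side.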

How the results depend on the processing

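With 1 library per group no library could be left out. No paired analysis was possible because each comparison holds a single pair of libraries, all with the same number in their names. The counts of members past 2-fold were recomputed under 5 alternatives (a pseudocount of 0.1, none, libraries scaled by their median ratio, FPKM rescaled to 1000000 per library, and fragments per 1000000), and all 20 equalled the values in the text. Dropping the filter on low values, or a mean FPKM of at least 5, leaves all 7 members in and cannot move their values, Ly6g passing the latter at a mean of 5.06 through WT butyrate. Of 203 recomputed changes, medians and differences that could move, 151 stayed within their counting error and 52 moved by more. Counting error here is the mean distance of the interval limits from the value, and for medians the median of this distance over the members. The greatest shift was 0.19, for Ly6g between genotypes under butyrate, at -1.31 without a pseudocount. In 3 cases a sign turned, each from a value within 0.05 of 0. The WT minus LNCKO difference of Ly6e became 0.0035 with median ratio scaling, the difference of Ly6e between genotypes under butyrate became 0.03 with FPKM rescaled to 1000000, and that of Ly6c1 between controls became 0.04 when fragments of Ly6c1 and Ly6c2 were summed, an alternative added after the data were seen. The cause of these turns was not tested. Depth does not limit the members, the fewest fragments being 621, and the single libraries do.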
